A study of Mus musculus with 8 samples.

Results

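The heavy chain constant region genes of the mouse immunoglobulin locus were examined in B cells on their way into the germinal center. These genes were taken from the count table by symbol, and all 8 were present among its 24259 genes: Ighm, Ighd, Ighg1, Ighg2b, Ighg2c, Ighg3, Igha and Ighe. RNA was measured in 8 libraries of about 200 cells each, sorted as NP-binding, IgD-low and B220-positive from C57BL/6 lymph nodes 3 days after immunization with NP-OVA, the hapten NP coupled to ovalbumin. In the HET group (4 libraries) help came from transferred OT-II T cells of genotype CD4-CrexBcl6fl/+, and in the WT group (4 libraries) from CD4-Cre OT-II T cells. OT-II T cells carry a receptor for an ovalbumin peptide, so CD4-Cre and this receptor were shared by both groups. The recipients were CD45.1 Sap-/- mice, in which host T cells give poor help to germinal center B cells, and LPS in alum was the adjuvant in both groups. The sequenced B cells were not deleted for Bcl6, and the age of the mice was not given in the sources used here. By the study's methods the cells of recipients of 1 group were pooled and the 4 repeats were sorted from that pool, so the spread within a group is that of sorting and library preparation, p-values measure only that spread, and an effect of the group cannot be told apart from one of its pool.

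The constant region of the heavy chain sets the class of an antibody. A naive B cell makes IgM and IgD from 1 primary transcript by alternative splicing, and class switch recombination later joins the same variable region to a downstream gamma, epsilon or alpha gene. Before a gene is recombined its own promoter makes a sterile germline transcript with the same constant exons, so a count for Ighg1, for instance, holds both sterile and switched messages, and it also holds both the membrane and the secreted form. In the mouse, interleukin-4 directs switching to IgG1 and IgE, interferon-gamma and the factor T-bet to IgG2c, and transforming growth factor-beta to IgG2b and IgA, while IgG3 is typical of responses to T cell-independent antigens and of LPS stimulation.

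The genes lie in a row on the minus strand of chromosome 12 (GRCm38, GENCODE M21). The order in the direction of transcription was Ighm (113418558 to 113422730), Ighd (113406604 to 113416324), Ighg3 (113356224 to 113361232), Ighg1 (113325240 to 113330523), Ighg2b (113302965 to 113307933), Ighg2c (113285325 to 113288932), Ighe (113269260 to 113273248) and Igha (113254830 to 113260236). No other annotated gene overlapped any of them. All are annotated as constant region gene segments.

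The 4 IgG genes are close copies, which bears on how reads were assigned to them, and their first constant exon is shown for that reason. The first 60 coding bases of the shorter GENCODE transcript are given 5′ to 3′, and capitals mark bases that differ from Ighg2b at the same position. The stretches are chr12:113307874-113307933 for Ighg2b, chr12:113288873-113288932 for Ighg2c, chr12:113330464-113330523 for Ighg1 and chr12:113361173-113361232 for Ighg3, all on the minus strand of GRCm38.
Ighg2b: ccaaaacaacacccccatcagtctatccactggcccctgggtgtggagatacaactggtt
Ighg2c: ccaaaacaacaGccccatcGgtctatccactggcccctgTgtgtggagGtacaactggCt
Ighg1: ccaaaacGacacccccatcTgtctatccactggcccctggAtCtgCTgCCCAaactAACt
Ighg3: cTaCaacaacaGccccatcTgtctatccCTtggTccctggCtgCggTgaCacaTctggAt

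Within these 60 bases Ighg2c differed from Ighg2b at 5 positions, and Ighg1 and Ighg3 each at 13. Over the coding bases of the shorter transcripts, Ighg2b and Ighg2c were 85.9% identical. The other pairs of IgG genes were 75.3% to 77.4% identical, and no pair with a gene of another class exceeded 64.03%. The longest identical coding stretch was found in Ighg2b (chr12:113306869-113306946) and Ighg2c (chr12:113287869-113287946) and held 78 bases, shown here as the place where their reads are hardest to tell apart.
Ighg2b and Ighg2c: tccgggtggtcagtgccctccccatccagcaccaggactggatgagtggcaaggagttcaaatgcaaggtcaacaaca

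With untranslated ends and membrane exons included, the longest shared run of any pair was 88 bases, between Ighg2b and Ighg3. How the authors treated reads with more than 1 alignment was not given in the sources used here, so the split among Ighg1, Ighg2b, Ighg2c and Ighg3 is uncertain to that extent.

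Total counts were 6652386 to 12559189 per library, and 3 counts, used as the floor, stood for 0.240 to 0.454 CPM (counts scaled to library size after TMM normalization). Since SMART-Seq2 reads carry no molecular identifiers, floors and intervals cover only counting error. The markers of the sorted cells were present in every library: 8 B cell markers summed to 21420 to 22690 CPM in HET and 24592 to 27197 CPM in WT. Markers of other cells were low but not absent, with 10 T cell markers summing to 451 to 686 CPM in HET and 397 to 567 CPM in WT, and 11 myeloid markers to 309 to 609 and 297 to 754 CPM. No gene of either list was at 0 in all libraries of a group. The sums rested largely on a few genes, so they do not measure the amount of other cells. Among the T cell markers Cd2 stood at 168 to 245 CPM and Lck at 92.1 to 172. Cd8b1 reached at most 123 CPM, Cd3e stood at 6.54 to 25.8 and Cd4 at 0 to 0.756. Among the myeloid markers Cst3 stood at 220 to 279 CPM, and Lyz2 reached 398 CPM in WT replicate 2.

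The constant region genes together took 0.808% to 1.71% of all counts in HET and 0.921% to 1.04% in WT. Compared per length, Ighm and Ighd stood far above the switched genes. Ighm had a mean of 4261 ± 1584 CPM per exonic kilobase (SD, n = 8) and Ighd, the other product of the same primary transcript, 916 ± 122. Ighm was above Ighd, and Ighd above Ighg3, in all 8 libraries. Below them the order of the means was Ighg3 (83.8 ± 94.4), Ighg2b (45.5 ± 32.7), Ighg1 (23.0 ± 17.2) and Ighg2c (21.4 ± 19.9). These neighbours did not differ beyond their spread, since each was above the next in only 4 of 8 libraries. The place of Ighg2c depended on the length used, since its exons cover 1326 bases and those of the other IgG genes 2512 to 2678. Per kilobase of the shorter transcript the mean was 55.4 CPM for Ighg1 and 25.6 for Ighg2c, and Ighg1 was above Ighg2c in 5 of 8 libraries. Per kilobase of the longer transcript the means were 24.0 and 23.4. Igha (2.91 ± 1.01) lay below Ighg2c in 7 of 8 libraries, and Ighe (1.30 ± 1.79) below Igha in 7 of 8.

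**Figure D1:**
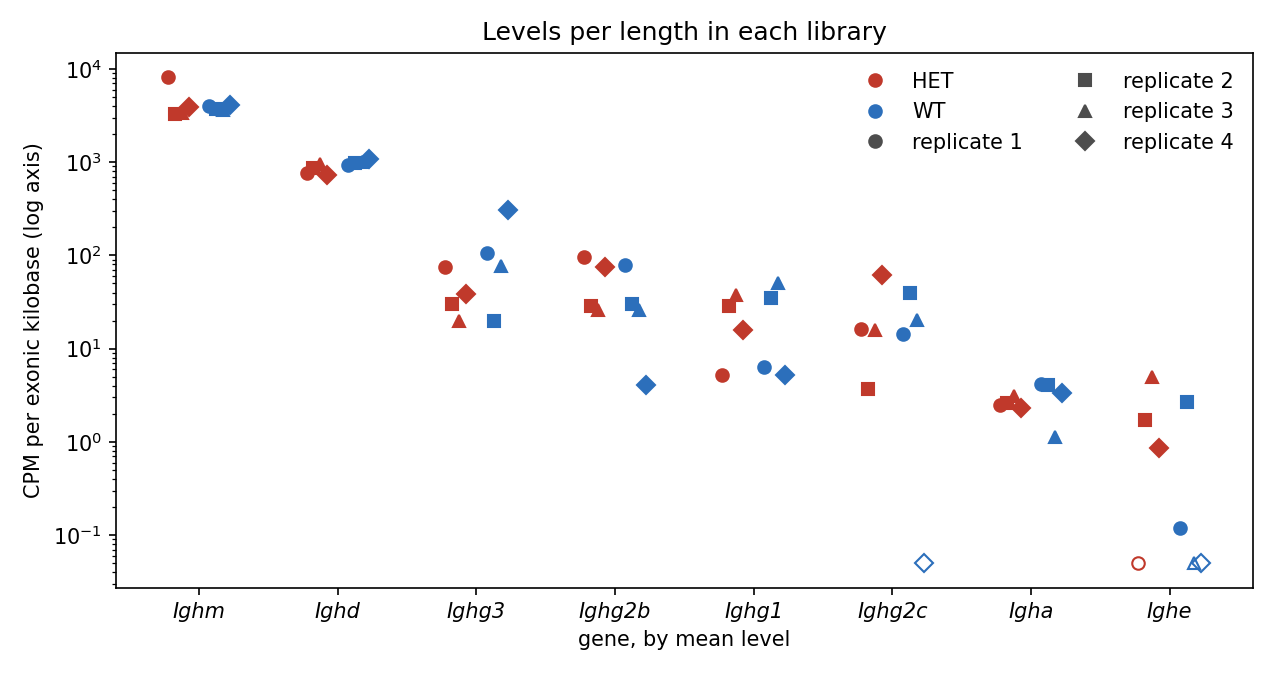
Level of each gene in each library, in CPM per exonic kilobase on a log axis, with genes ordered by mean. Colours mark the groups, symbols the replicates, and open symbols near the bottom mark libraries with 0 counts. Ighm and Ighd lie apart from the 6 switched genes, and the 4 IgG genes overlap one another.

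The distance between Ighm and Ighd depended on the length used. Per exonic kilobase Ighm was 3.52 to 10.6 times Ighd across the libraries, and with the shorter transcript of each gene as the length it was 1.88 to 5.65 times. In the authors' TPM it was 9.36 to 28.2 times. The deposited TPM values divide by the mean genomic span of a gene's transcripts, introns included, which held within 1% for 84.7% of 23507 genes and makes Ighd 2.68 times as long as Ighm, whereas the exons of both genes are of nearly equal length (ratio 1.01). Levels between genes are therefore given per exonic kilobase, and comparisons of 1 gene between libraries in CPM. Shares and the make-up of the switched genes rest on counts not scaled by length unless a length is named.

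Ighm encodes the mu chain of IgM, the first class that a B cell makes. In HET it stood at 15315 CPM in replicate 1, 6127 in replicate 2, 6415 in replicate 3 and 7344 in replicate 4. In WT it stood at 7498, 7066, 6894 and 7634 CPM in replicates 1 to 4. A single library, HET replicate 1, stood far above all others, HET replicates 2 and 3 lay below every WT library, and HET replicate 4 lay within the WT range. The log2 fold change of HET against WT was 0.28 (95% interval -0.50 to 1.05, edgeR adjusted p = 0.905), and without HET replicate 1 it was -0.13.

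Antibody-secreting cell markers moved with Ighm in that library. Of 11 such markers, 9 were highest within HET in replicate 1, and their summed level was 2342 CPM there and 367 to 737 CPM in HET replicates 2 to 4. Jchain, which links IgM into pentamers, stood at 1571 CPM in HET replicate 1 and at 10.5 to 96.8 CPM in replicates 2 to 4. The kappa constant gene Igkc stood at 12350 CPM there against 3897 to 4636 CPM. In WT, replicate 4 was highest for 7 of the 11 markers, with a sum of 704 CPM against 306 to 427 CPM. HET replicate 4 had a larger sum, 737 CPM, and its Jchain of 96.8 CPM was near the 94.5 CPM of WT replicate 4. Jchain stood at 0.503 to 41.5 CPM in WT replicates 1 to 3. Igkc in WT replicate 4, at 5118 CPM, was below the 5439 CPM of WT replicate 1. Prdm1, the regulator of plasma cell differentiation, stood at 10.8 CPM in WT replicate 4 and at 10.2 CPM in HET replicate 1, against 0.149 to 3.14 CPM elsewhere. The part of such transcripts in the isotype levels was not tested. In bulk libraries, more cells of a type and more RNA per cell cannot be told apart.

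Ighd encodes the delta chain, and the sort selected cells with little IgD on their surface in both groups. It stood at 1456, 1650, 1835 and 1373 CPM in HET replicates 1 to 4 and at 1790, 1865, 1918 and 2043 CPM in WT replicates 1 to 4. The coefficient of variation over all libraries was 13.3% for Ighd and 37.2% for Ighm, and within WT it was 5.60% for Ighd and 4.81% for Ighm. Only HET replicate 3 reached into the WT range. HET averaged 1578 ± 207 CPM (SD, n = 4), and the mean of WT was 1904 ± 107 CPM (SD, n = 4). The log2 fold change of -0.27 (SE 0.09, 95% interval -0.46 to -0.09) had an unadjusted p of 0.00721 and did not pass over all genes (edgeR adjusted p = 0.528, DESeq2 adjusted p = 0.288, range 0.262 to 0.771 over all alternatives).

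The general B cell markers stood on the same side as Ighd. All 8 had a negative log2 fold change, with a median of -0.23 against -0.0014 over all 12744 genes tested, and 0 of 8 passed in edgeR (0.0235% of all genes did), while 7 had an unadjusted p under 0.05 (7.22% of all genes) and DESeq2 called 2 (0.687% of the genes it tested). The called markers, named after their values were seen, were Cd74 and Cd22. Cd74, the MHC class II invariant chain, stood at 10753 to 11645 CPM in HET and 12580 to 15111 CPM in WT, without overlap (log2 fold change -0.34, edgeR adjusted p = 0.0770, DESeq2 adjusted p = 0.00868). Cd22, an inhibitory co-receptor, had a log2 fold change of -0.37 (edgeR adjusted p = 0.220, DESeq2 adjusted p = 0.0159). The T cell markers stood on the opposite side, with 8 higher and 1 lower of 9 tested and a median log2 fold change of 0.45, and with 0 below an unadjusted edgeR p of 0.05. Cd79b, a signalling chain of the B cell receptor, stood at 2283 to 2720 CPM in HET and 2817 to 3111 CPM in WT, without overlap (log2 fold change -0.24, edgeR adjusted p = 0.354). Its partner Cd79a had a log2 fold change of -0.13 (edgeR adjusted p = 0.670). Zfp318, the factor needed to make the IgD splice form, stood at 69.6 to 94.4 CPM in HET and 82.4 to 120 CPM in WT, with overlap (log2 fold change -0.28, edgeR adjusted p = 0.733). Whether the Ighd difference is separate from those of the B cell and T cell markers was not tested.

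**Figure D2:**
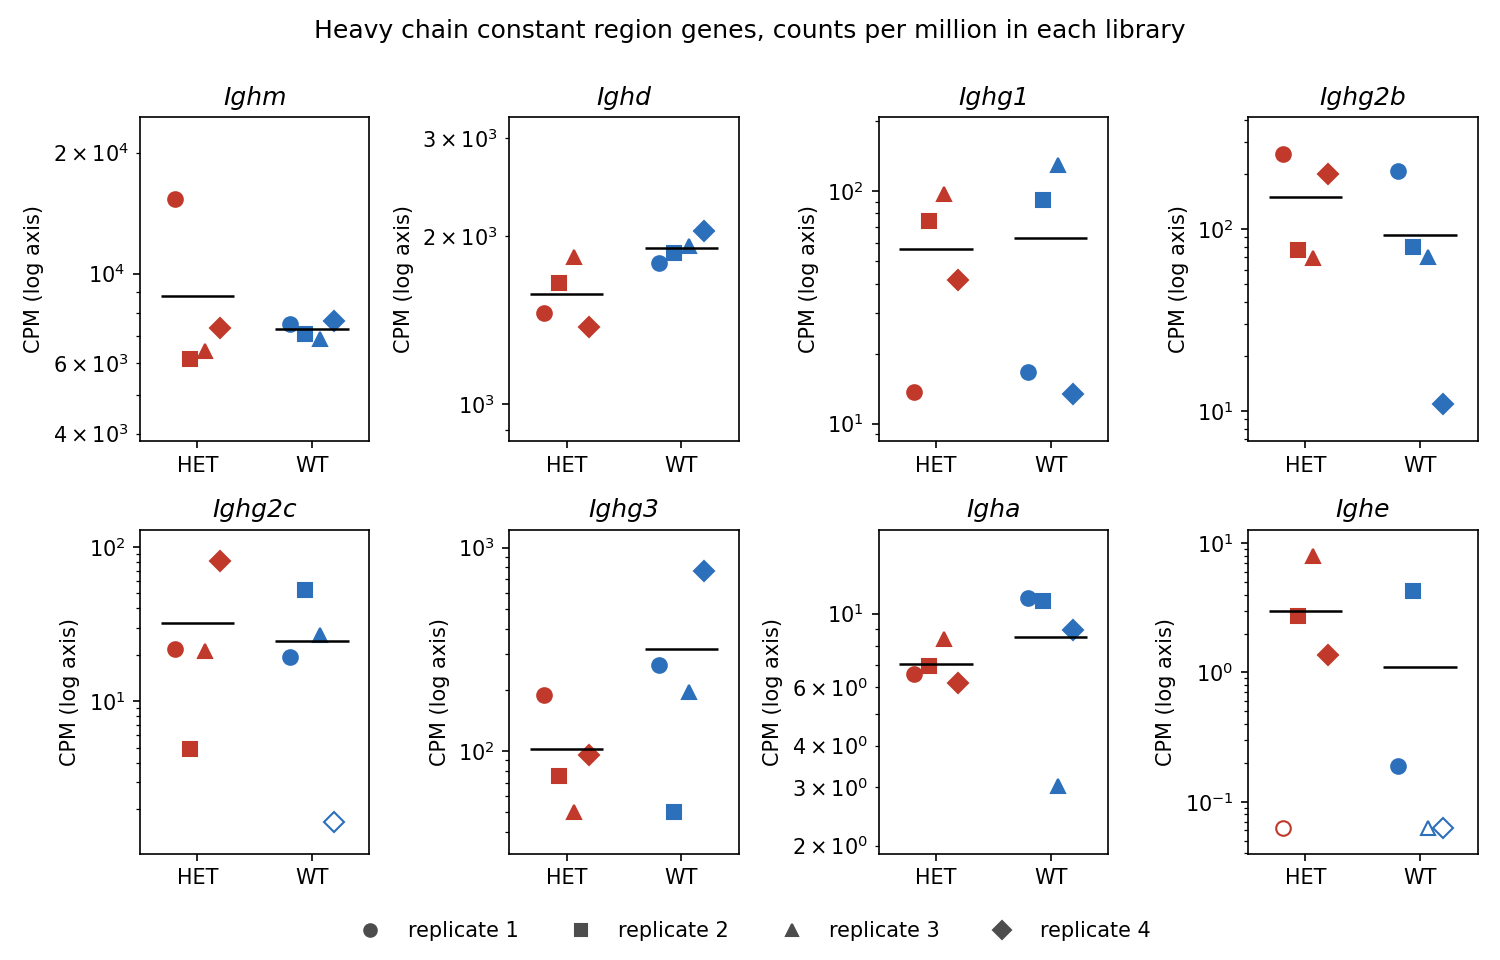
CPM of each of the 8 genes in every library, on a log axis of its own range for each gene. Red symbols are HET, blue symbols WT, horizontal lines group means, and open symbols libraries with 0 counts. HET replicate 1 stands apart for Ighm, and the switched genes spread widely within both groups.

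The ratio of the 2 splice products was compared within libraries, where depth and scaling cancel. There were 9.51, 26.9, 28.6 and 18.7 Ighd counts per 100 Ighm counts in HET replicates 1 to 4, and 23.9, 26.4, 27.8 and 26.8 in WT replicates 1 to 4. HET replicates 1 and 4 lay below every WT library, and HET replicates 2 and 3 lay within or above the WT range. HET had a log2 ratio of -2.38 ± 0.73 (SD, n = 4), whereas that of WT was -1.93 ± 0.09 (SD, n = 4), a difference of -0.44 (two-sided exact permutation p = 0.4, adjusted p = 0.8 over 2 ratios, with 0.0286 the smallest p that 70 arrangements allow). Without HET replicate 1 the difference was -0.11.

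The 6 switched genes together made up a small part of the constant region counts. Their share was 2.83%, 3.00%, 2.98% and 4.65% in HET replicates 1 to 4, and 5.31%, 3.14%, 4.60% and 7.62% in WT replicates 1 to 4. The widest exact 95% interval of these shares ran from 4.49% to 4.82% (HET replicate 4). In WT no interval overlapped another, so the WT libraries differed by more than counting error. In HET the intervals of replicates 1 to 3 overlapped one another, and only replicate 4 stood apart. The HET mean was 3.37% ± 0.862 (SD, n = 4), the WT mean was 5.17% ± 1.87 (SD, n = 4), and the groups overlapped because HET replicate 4 lay above WT replicates 2 and 3. The difference of the means was -1.80 percentage points with all libraries and -0.986 without WT replicate 4. With counts per exonic kilobase the share averaged 2.70% ± 0.876 in HET and 4.06% ± 1.31 in WT (SD, n = 4), also with overlap. As a sum over the members this share was given no test.

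**Figure D3:**
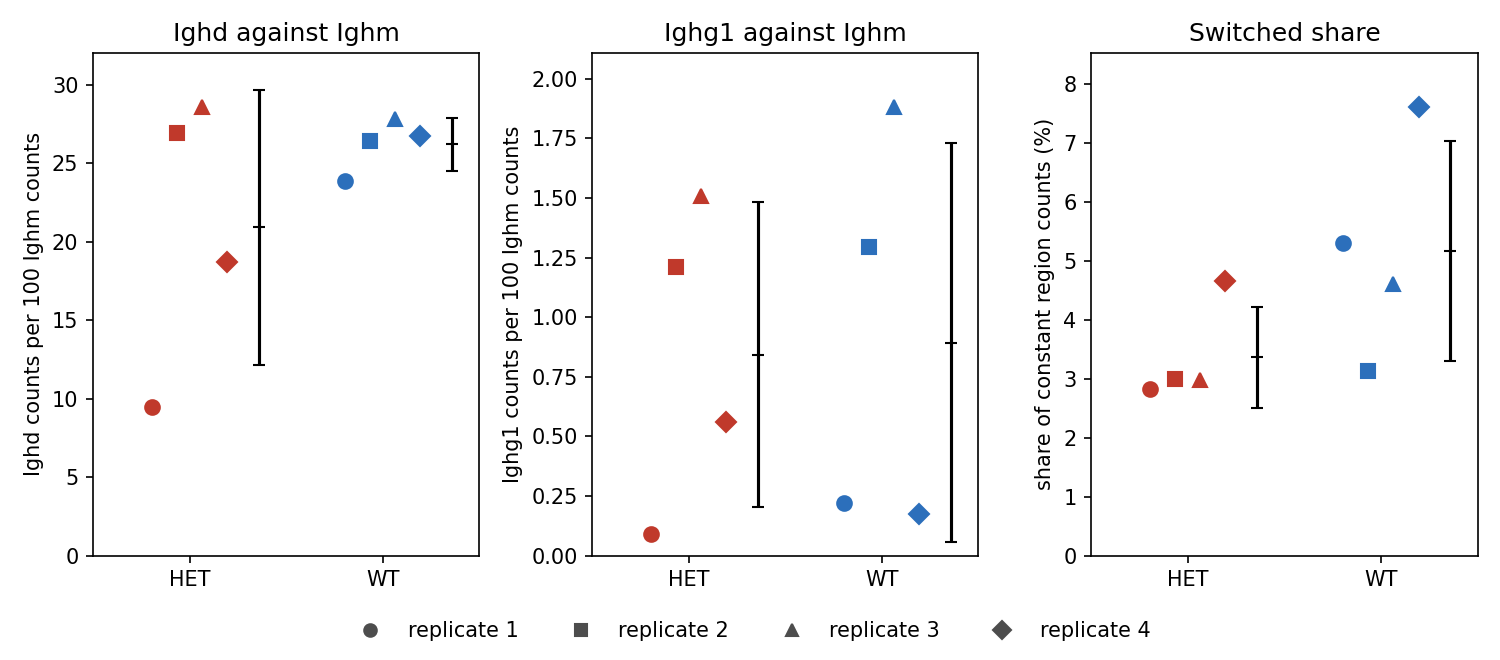
Ighd counts per 100 Ighm counts, Ighg1 counts per 100 Ighm counts, and the share of switched genes in the constant region counts (percent), by library. Symbols are replicates, and the bars beside them give the mean ± SD of 4 libraries. WT is tight for Ighd at 23.9 to 27.8, and HET spans 9.51 to 28.6.

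Which switched gene led differed between libraries of 1 pool. Ighg2b was the most counted switched gene in 3 HET libraries and in 0 WT libraries, Ighg3 in 0 HET and 3 WT libraries, and Ighg1 in 1 library of each group. In HET replicate 2 this rested on 594 counts of Ighg2b against 583 of Ighg3, which counting error does not separate. Per exonic kilobase Ighg2b led in 2 HET and 0 WT libraries, Ighg3 in 1 HET and 3 WT libraries, Ighg1 in 1 HET library and Ighg2c in 1 WT library. That Ighg2c lead, in WT replicate 2, depended on the length used. Per kilobase of the shorter transcript this library had 85.0 CPM of Ighg1, 71.9 of Ighg2b and 47.5 of Ighg2c. Unscaled, it had 903 counts of Ighg1 and 521 of Ighg2c. The make-up of single libraries was extreme in places. In WT replicate 4, Ighg3 took 95.8% of the switched counts, and in HET replicate 1, Ighg2b took 52.8%, Ighg3 38.6% and Ighg1 2.79%. The balanced libraries were HET replicates 2 and 3 and WT replicate 2, in each of which the leading gene took 31.6% to 38.2%.

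**Figure D4:**
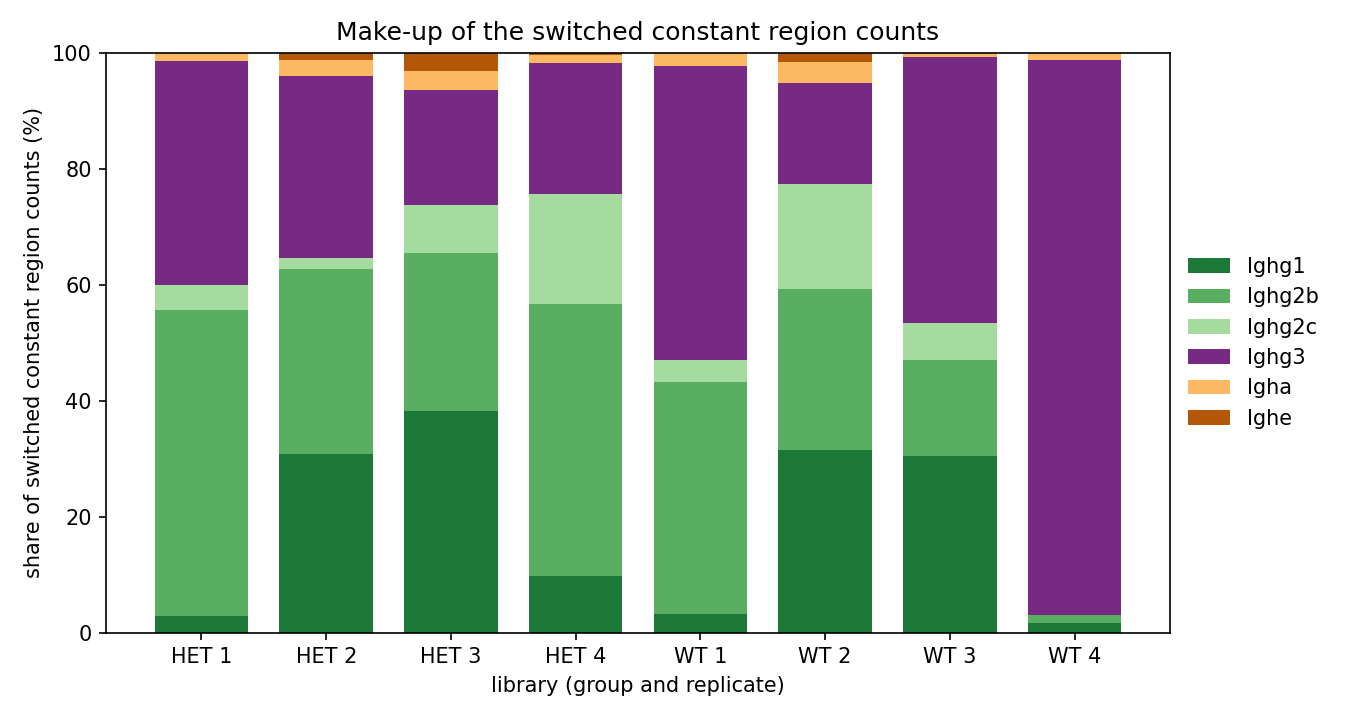
Share of each switched gene in the switched constant region counts, in percent, as 1 stacked bar per library. Ighg3 fills 95.8% of the bar of WT replicate 4, and Ighg1 ranges from 1.68% to 38.2% across the bars.

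Ighg3, the gamma gene nearest to Ighd, stood at 188, 75.3, 50.04 and 95.7 CPM in HET replicates 1 to 4 and at 265, 50.04, 195 and 765 CPM in WT replicates 1 to 4. WT replicates 1, 3 and 4 lay above all HET libraries, and WT replicate 2 lay with the lowest HET library. The log2 fold change was -1.63 (95% interval -3.73 to 0.46, edgeR adjusted p = 0.773), and DESeq2 gave an unadjusted p of 0.0467 and an adjusted p of 0.546 (range 0.527 to 0.931 over all alternatives). Without WT replicate 4 the log2 fold change was -0.73.

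Ighg2b stood at 258, 76.7, 69.2 and 200.2 CPM in HET replicates 1 to 4 and at 209, 80.1, 70.3 and 10.9 CPM in WT replicates 1 to 4. Each group held libraries near 200 CPM and libraries near 70 CPM, and WT replicate 4, the library with the most Ighg3, was lowest. The log2 fold change was 0.71 (95% interval -1.43 to 2.84, edgeR adjusted p = 0.910). Leaving out HET replicate 1 gave 0.32, leaving out WT replicate 4 gave 0.33, and leaving out WT replicate 1 gave 1.49.

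Ighg1, the usual class of responses to protein antigens in alum, stood at 13.6, 74.1, 96.8 and 41.3 CPM in HET replicates 1 to 4 and at 16.6, 91.5, 130 and 13.4 CPM in WT replicates 1 to 4. Both groups held libraries under 20 CPM and libraries over 70 CPM. The log2 fold change was -0.16 (95% interval -2.41 to 2.09, edgeR adjusted p = 0.981). Per 100 Ighm counts there were 0.0890 to 1.51 Ighg1 counts in HET and 0.176 to 1.88 in WT, and the log2 ratio differed by -0.01 (two-sided exact permutation p = 1, adjusted p = 1 over 2 ratios). The interval of the fold change is too wide to call the groups alike.

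Ighg2c, the C57BL/6 gene in the place of IgG2a, stood at 21.7, 4.91, 21.2 and 80.7 CPM in HET replicates 1 to 4 and at 19.2, 52.8 and 26.7 CPM in WT replicates 1 to 3. WT replicate 4 had 0 counts, which at its depth allows up to 0.312 CPM. The highest libraries were thus 1 of each group, and the log2 fold change of 0.38 (95% interval -2.81 to 3.56, edgeR adjusted p = 0.977) turned to -0.62 when HET replicate 4 was left out and to -0.04 when WT replicate 4 was.

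Ighe and Igha, the last genes of the row, had the fewest counts. Igha had 24 to 118 counts per library, at 6.20 to 8.37 CPM in HET and 3.02 to 11.2 CPM in WT (log2 fold change -0.28, 95% interval -1.20 to 0.64, edgeR adjusted p = 0.931). Ighe, which needs interleukin-4, had 0, 21, 53 and 9 counts in HET replicates 1 to 4 and 2, 42, 0 and 0 counts in WT replicates 1 to 4. Its 0 counts allow up to 0.240 CPM in HET replicate 1, 0.377 CPM in WT replicate 3 and 0.312 CPM in WT replicate 4. The libraries with the most Ighe, HET replicates 2 and 3 and WT replicate 2, were also those with over 70 CPM of Ighg1, whereas WT replicate 3 had the most Ighg1 and no Ighe count. The fitted log2 fold change of 1.40 (95% interval -1.89 to 4.68, edgeR adjusted p = 0.892) became 0.27 when HET replicate 3 was left out and 5.18 when WT replicate 2 was.

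Over the 8 genes, all of which passed the filter on low counts, 0 passed an adjusted p of 0.05 in edgeR or in DESeq2. The background was 0.0235% of 12744 genes called by edgeR and 0.687% of 13834 genes called by DESeq2. At an unadjusted p under 0.05 there was 1 of 8 in edgeR (Ighd), where 7.22% of all genes were, and there were 2 of 8 in DESeq2 (Ighd and Ighg3), where 8.91% of all genes were. The CPM of the groups separated without overlap for 0 of 8 genes, against 4.61% of all genes tested. Ighe passed the filter only through the libraries in which it was high.

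**Figure D5:**
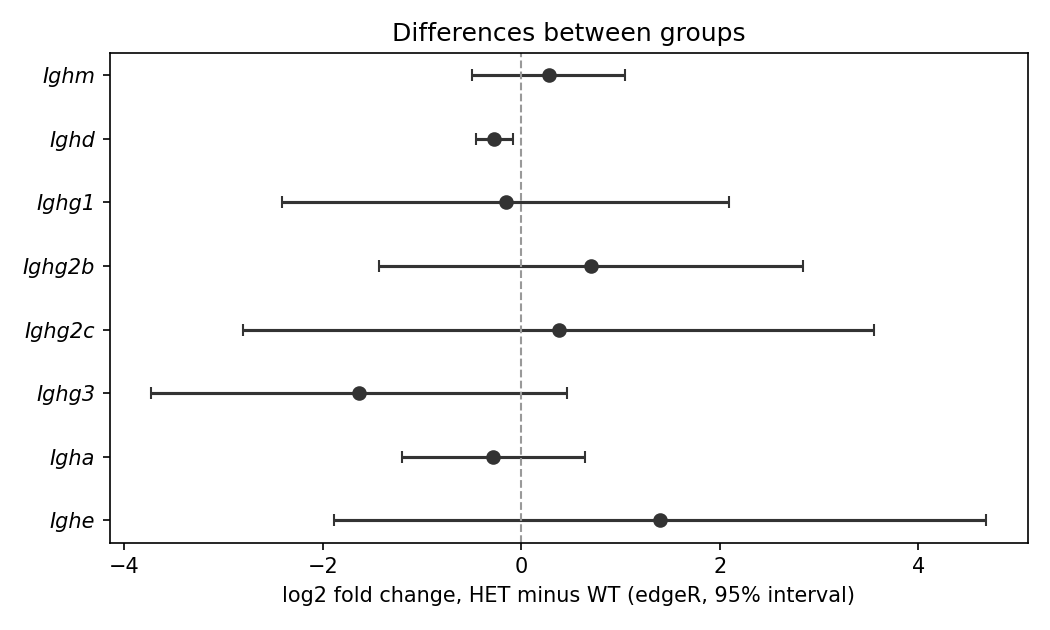
Log2 fold change of HET against WT for the 8 genes (points) with the 95% interval from edgeR's quasi-likelihood fit (bars). The interval excludes 0 for Ighd alone, before adjustment over all genes, and spans more than 4 log2 units for Ighg1, Ighg2b, Ighg2c, Ighg3 and Ighe.

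Genes that act on the constant region were compared in the same fit. Of 27 genes of the switch machinery 26 were tested, 12 higher and 14 lower in HET with a median log2 fold change of -0.02, and 0 passed in edgeR or DESeq2, with 2 at an unadjusted p under 0.05. Of 9 genes of heavy chain RNA processing 8 were tested, with 4 higher, 4 lower and 0 called by either tool, and 1 (Aff4) at an unadjusted p under 0.05 in edgeR. The 8 partners of the heavy chain in the antibody and its receptor had 5 members higher and 3 lower, and 2 with an unadjusted p under 0.05, the antibody-secreting cell markers 8 higher and 2 lower of 10 tested, and the myeloid markers 5 higher and 4 lower of 9. Their median log2 fold changes were 0.04, 0.36 and 0.15. In these lists too 0 genes passed in edgeR or DESeq2, but of the genes edgeR tested, DESeq2 gave no adjusted p for Jchain and Lyz2. At an unadjusted p under 0.05 in edgeR there were 2 myeloid markers and 0 antibody-secreting cell markers. The 2 partners below that p were Cd79a and Cd79b, which are also counted among the B cell markers. Over all genes tested, 7.22% had an unadjusted edgeR p under 0.05. The share called was 0.0235% in edgeR and 0.687% in DESeq2, each of the genes that tool tested.

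Among 20 receptors and factors that direct switching, 10 were higher and 10 lower in HET, with a median log2 fold change of -0.02. None passed in edgeR, where 4 had an unadjusted p under 0.05 (7.22% of all genes), and DESeq2 called 3 (0.687% of all genes), which are named here after their values were seen. Tbx21, which encodes T-bet, stood at 12.5, 12.3, 10.8 and 22.8 CPM in HET replicates 1 to 4 and at 1.99, 2.23, 8.18 and 1.14 CPM in WT replicates 1 to 4, with no overlap (log2 fold change 2.12, edgeR adjusted p = 0.333, DESeq2 adjusted p = 0.0310). Il4ra, the interleukin-4 receptor chain, stood at 164 to 186 CPM in HET and 214 to 259 CPM in WT, also with no overlap (log2 fold change -0.41, edgeR adjusted p = 0.280, DESeq2 adjusted p = 0.0170). Batf, an AP-1 factor required for switching, had a mean of 87.7 CPM in HET while WT had 52.0 CPM (log2 fold change 0.76, edgeR adjusted p = 0.329, DESeq2 adjusted p = 0.0486). Whether the differences in these genes are separate from those of the B cell and T cell markers was not tested. A link between them and the level of any isotype gene was not tested either, and the intervals for Ighg2c and Ighg1 given above are wide.

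Finally, the genes whose log2(CPM + 1) was most like that of an isotype gene over the 8 libraries were listed among 8422 genes outside the immunoglobulin loci with a mean of at least 10 CPM. For Ighd these were Aftph, Dus2, H2-Ob, Ctsc and H2-Aa, with Pearson r of 0.961 to 0.985, and with 0.929 to 0.977 over 7 libraries without HET replicate 4. H2-Ob and H2-Aa encode chains of MHC class II molecules, and Ctsc a lysosomal protease. For Ighg1 they were Acp1, Wsb2, Nsd2, Ttc1 and Crebzf (r of 0.897 to 0.960, and 0.874 to 0.952 without WT replicate 4). For Ighm they were Pak2, Dgcr6, Sec61b, Gltp and Rps2-ps13 (r of 0.915 to 0.934), and without HET replicate 1 these were 0.22 to 0.83. Sec61b, a subunit of the channel through which secretory proteins enter the endoplasmic reticulum, stood at 252 CPM in HET replicate 1 and at 127 to 157 CPM in the other libraries. The libraries of a group share 1 pool, and with so many genes ranked over 8 points high values of r occur without a relation, so these are descriptions.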

How the data were processed

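Reads of SMART-Seq2 libraries were aligned by the authors to GRCm38 with Hisat2 2.2.1 and counted per gene with HTSeq; the annotation release, strand setting and treatment of multiply aligned reads were not given in the sources used here. The count table deposited by the authors lists integer reads for 24259 symbols. The deposited TPM table (24232 symbols) holds, per its values, the same counts divided by a length that includes introns and rescaled by the authors to a fixed sum. The columns of both tables matched the libraries by name.

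Tests used edgeR 4.0.16 under R 4.3.3 (filterByExpr, 12744 genes kept with 99.7% of counts, TMM scaling, robust quasi-likelihood F-test with group as the only factor, Benjamini-Hochberg adjustment over all genes, threshold 0.05). Standard errors were derived from the log2 fold change and F. The fit was tested on simulated counts. DESeq2 1.42.0, the tool of the study, and limma 3.58.1 were alternatives. Shares were given exact (Clopper-Pearson) 95% intervals. The 2 log2 ratios were compared by two-sided exact permutation tests in scipy 1.17.1, with 0.5 added to both counts for Ighg1. Lengths, positions and transcript sequences were taken from GENCODE M21 on GRCm38, and coding sequences were aligned globally with Biopython 1.88.

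The 8 genes and the other gene lists were chosen with earlier results of these data known. All 8 were described whatever their result. No gene of the lists passed the edgeR threshold by which they were to be named, so those named were the fixed genes Zfp318, Jchain, Prdm1, Igkc, Cd79a and Cd79b (another is not reported here), and the 5 genes most like Ighm, Ighd and Ighg1 were named by Pearson r. Other list genes, those called by DESeq2 included, were named after their values were seen. Shares and leading genes per exonic kilobase and the fit without HET replicate 1 and WT replicate 4 were added after the data were seen.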

Additional observations from a re-analysis of the deposited data

Results flagged for a closer look

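Single libraries were picked out where they lay unusually far from the 3 others of their group, judged by the distance to the closest one as a part of the spread from lowest to highest. This held in 3 of 22 sets of 4 values examined, where chance gives about 1.1, and sets that share a library are not independent. Ighm reached 15315 CPM in HET replicate 1, whereas HET replicates 2 to 4 had 6127 to 7344 CPM (distance 0.868 of the spread). The switched genes took 4.65% of constant region counts in HET replicate 4 and 2.83% to 3.00% in HET replicates 1 to 3 (0.904 of the spread). Ighe reached 4.25 CPM in WT replicate 2, and the remaining WT libraries had 0 to 0.189 CPM, which is at most 2 counts (0.955 of the spread).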

How the results depend on the processing

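No isotype gene was called in any of 18 alternative fits, and the values of Ighd, Ighg3, Igha and Ighe kept their sign in every fit that tested them. Leaving out each library in turn, log2 fold changes ran from -0.13 to 0.42 for Ighm, from -0.55 to 0.49 for Ighg1 and from -0.62 to 1.07 for Ighg2c, and the difference in the log2 ratio of Ighg1 to Ighm from -0.57 to 0.86. With HET replicate 1 and WT replicate 4 both left out, the log2 fold change was -0.11 for Ighm and -0.058 for Ighg2b, and the Ighg1 to Ighm ratio differed by 0.31. The log2 fold change of Ighg1 was 0.093 by limma-trend on log2(TPM + 1), with and without a mean TPM filter of 1, 0.10 on log2(TPM + 0.1) and 0.11 with the replicate block. The cause was not tested. Same-numbered libraries deviated with a correlation of -0.0442 to 0.0244, so the numbers do not pair them, and the replicate block changed no call. The exact permutation tests of the ratios cannot go below p = 0.0571 with 1 library left out, or below 0.125 with sign flips of the 4 differences, so they say nothing about stability. The switched share stayed lower in HET in all alternatives (-2.48 to -0.806 percentage points). Ighe could not be fitted with a filter of at least 50 mean counts. Libraries at 0 counts limit Ighe and Ighg2c.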
